A study of Mus musculus with 40 samples.

Results

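The genes described here are 10 regulators of histone H3 lysine 9 (H3K9) methylation: 6 genes that encode H3K9 methyltransferases (Ehmt1, Ehmt2, Setdb1, Setdb2, Suv39h1 and Suv39h2) and 4 that encode their partners (Wiz, Zfp644, Trim28 and Atf7ip). They are given by name, no measured value enters the rule, and they were read from a table of 38540 transcript loci. A locus was taken where its gene label was a member and the label lay on the strand of the locus, which found 7 loci of 6 genes. The table gives each locus 1 label, and the loci that cover Setdb1, Setdb2, Suv39h1 and Suv39h2 carry a neighbour's name. These 4 genes were therefore matched by position, to the locus on the same strand that covers at least 80% of their span in RefSeq annotation of GRCm38.p6, a choice made after the table was seen. For the other 6 genes this position match gave the labelled locus in 6 of 6 cases, and with both matches 11 loci represent the 10 genes.

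RNA was measured in 11 libraries made from germinal-vesicle oocytes, that is, grown oocytes that have not resumed meiosis. They were collected by hand from mice 22 to 25 days old in pools of 100 to 200. The 4 groups were 3 controls and 3 libraries with a conditional deletion of G9a (G9a cKO), both with the title prefix GKAO, and 3 controls and 2 libraries with a conditional deletion of G9a and Glp (cDKO), both with the prefix GKAQ. Each mutant was compared with the controls of its own prefix. H3K9me2 was measured in 2 libraries each of control, G9a cKO and cDKO. The Cre driver, the exons removed, the strain and the genotype of the controls beyond that word are not given in the sources used here. Whether libraries of a group came from separate animals is not given either, so p-values measure the spread between these libraries, which may be technical.

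Methylation of H3K9 marks silent chromatin and is divided among several enzymes. G9A (Ehmt2) and GLP (Ehmt1) form a heterodimer that places mono- and dimethylation, and the zinc finger proteins WIZ and ZNF644 (Zfp644) bind the dimer and bring it to its targets. SETDB1 places trimethylation, is recruited by TRIM28 bound to KRAB zinc finger proteins, and depends on ATF7IP for its nuclear retention and stability, whereas SUV39H1 and SUV39H2 trimethylate pericentromeric repeats.

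RNA libraries held 1458868 to 2399680 reads, and levels are given as reads in every 1000000 of the library (RPM) or their log2. All 10 oocyte markers were present, with a summed level of 13542 to 16542 RPM over the 11 libraries. The 10 granulosa markers summed to 114 to 194 RPM, with Amhr2 at 3 reads or fewer in every library. Of 7 matched markers of theca, stroma, endothelium and blood 5 were at 3 reads or fewer throughout. The endothelial marker Pecam1 was present in every library, with 118 to 272 reads and a mean of 98.9 RPM, and Dcn had 0 to 11 reads. These 7 markers summed to 75.4 to 123 RPM. A locus was called at an adjusted p under 0.05 (limma, two-sided, Benjamini-Hochberg over all 38540 loci). In bulk RNA, fewer cells of a type and less RNA per cell cannot be told apart. The 2 control groups differed from each other at 3.87% of all loci and 14.8% of loci at 10 RPM or more, where 9 of the 10 members lay. By limma 0 of the 10 members were among them, 2 (Suv39h1 and Atf7ip) had an unadjusted p under 0.05, and 0 were called with voom weights. Such an unadjusted p was found at 4382 of all 38540 loci and at 2947 of 9091 loci at 10 RPM or more.

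Ehmt2 and Ehmt1, the genes labelled as deleted, had lower means where their deletion is labelled, and Ehmt1 passed the test while Ehmt2, with 2 to 30 reads a library, did not. Ehmt2 encodes G9A (chr17:34898465-34914051, plus strand). It had 8.23, 6.81 and 5.27 RPM in the GKAO controls and 2.09, 6.01 and 0.942 RPM in G9a cKO. It had 5.03, 12.5 and 7.89 RPM in the GKAQ controls and 2.85 and 2.96 RPM in cDKO. Replicate 2 of the libraries labelled G9a cKO was within the range of its controls, while both cDKO libraries lay below theirs. The change was −1.55 on the log2 scale in G9a cKO (SE 0.51, with an adjusted p of 0.0971) and −1.45 in cDKO (SE 0.57, with an adjusted p of 0.121). Leaving out replicate 2 of G9a cKO gave −2.25 with a limma adjusted p of 0.0154. That library is singled out here by its own Ehmt2 level, so this value is no independent test of the fall. Over single libraries left out the change in G9a cKO ran from −2.25 to −0.91. Among libraries whose titles share a number, the log2 difference of mutant and control was −1.84 (GKAO109), −1.15 (GKAO115) and −2.08 (GKAQ55).

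Ehmt1 (GLP, chr2:24790769-24919653, minus strand) had 90.5, 68.3 and 85.3 RPM in the GKAQ controls and 17.7 and 21.3 RPM in cDKO. The groups were far apart, and cDKO retained 24.0% of the control level (log2 fold change −2.06, SE 0.20, adjusted p = 1.09e-21). The retained reads, 31 and 36, were counted over the whole locus, so they can include exons outside the deleted part. In the G9a single mutant Ehmt1 had 69.3, 75.9 and 66.9 RPM against 80.2, 54.5 and 68.0 RPM in the GKAO controls. These libraries overlapped, and the 95% interval of the change ran from −17.0% to 34.9%. The difference between the effects passed the test (log2 difference −2.14, SE 0.27, adjusted p = 1.98e-11, with 1.08% of all loci called).

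**Figure D1:**
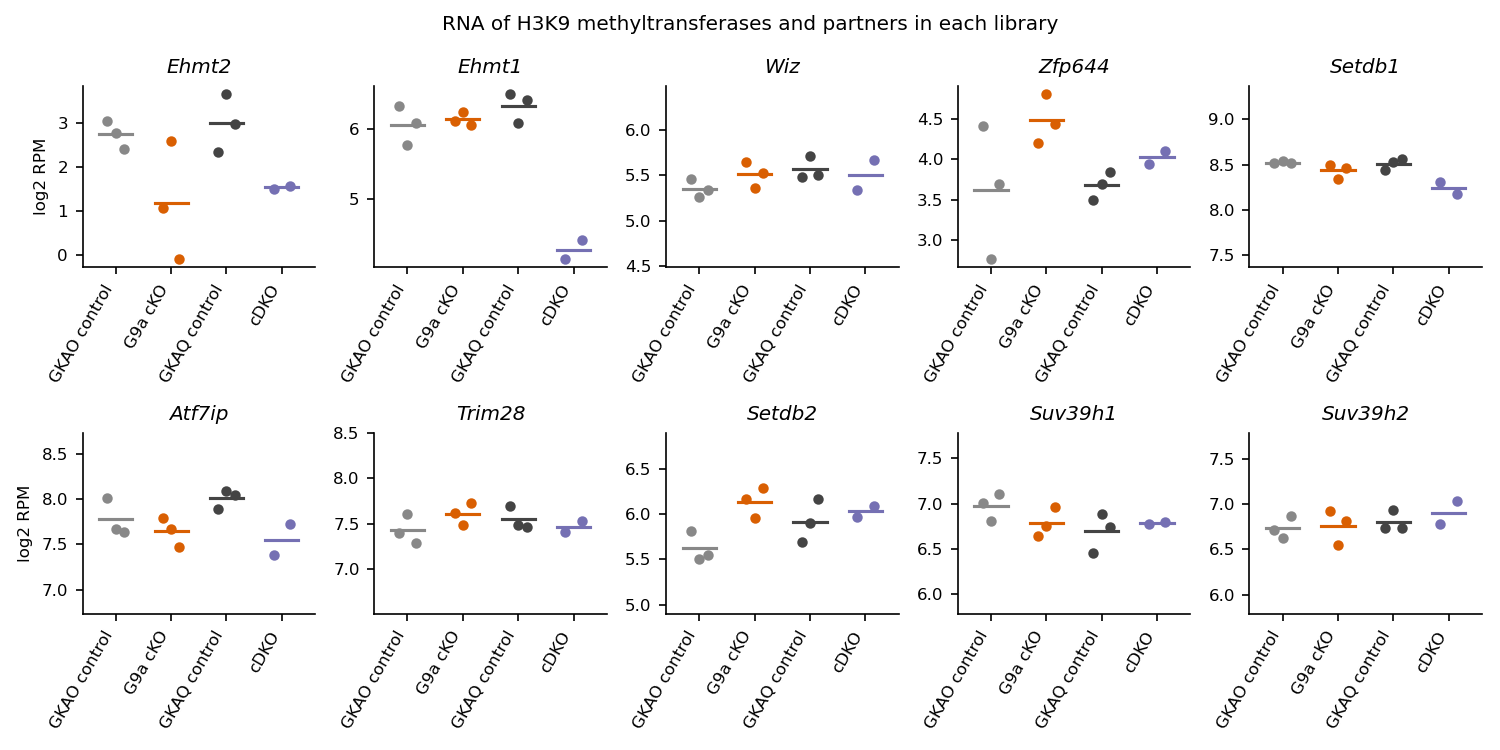
Level of each gene in log2 RPM (vertical axis, a separate range in each panel) in the 11 RNA libraries, with 1 point per library and a line at the group mean. The cDKO libraries lie far below the GKAQ controls for Ehmt1 and below them by less for Atf7ip and Setdb1. They lie within or near the GKAQ control range for Suv39h1, Suv39h2, Trim28 and Wiz. For Atf7ip, cDKO replicate 2 lies within the range of the GKAO controls.

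The sequence upstream of Ehmt2 and Ehmt1 is shown because they are the genes targeted, and that of Atf7ip because it is the other member called. They are RefSeq promoter bases of GRCm38.p6, 5′ to 3′ on the strand of the gene, cut where the annotated gene or the deposited locus begins. Capitals mark CG pairs. The stretches are chr17:34898224-34898462 (plus strand, 14 CG), chr2:24919654-24919859 (minus strand, 17 CG) and chr6:136518601-136518730 (plus strand, 10 CG).
Ehmt2: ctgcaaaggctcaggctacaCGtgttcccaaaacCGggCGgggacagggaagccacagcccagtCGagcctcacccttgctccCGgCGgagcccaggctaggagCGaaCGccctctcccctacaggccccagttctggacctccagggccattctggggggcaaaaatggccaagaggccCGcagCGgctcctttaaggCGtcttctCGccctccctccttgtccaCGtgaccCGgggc
Ehmt1: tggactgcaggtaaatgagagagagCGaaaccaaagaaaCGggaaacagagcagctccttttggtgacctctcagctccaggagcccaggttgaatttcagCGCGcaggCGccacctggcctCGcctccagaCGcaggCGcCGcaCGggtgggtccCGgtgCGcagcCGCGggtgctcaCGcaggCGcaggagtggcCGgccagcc
Atf7ip: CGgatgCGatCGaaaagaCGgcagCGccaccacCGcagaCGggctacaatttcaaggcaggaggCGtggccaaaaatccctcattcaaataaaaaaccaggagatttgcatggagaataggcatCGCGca
The first 250 bases of the promoter window that RefSeq's table gives reach past the start of the annotated gene at all 3. Over these 250 bases Ehmt2, Ehmt1 and Atf7ip held 18, 26 and 20 CG pairs, against a median of 6 over the same stretch of 27025 mouse promoters. Promoters with as many CG pairs made up 21.6%, 9.24% and 17.7% of these. The other 7 members ranged from 6 CG pairs (Zfp644) to 27 (Suv39h2). These counts describe the sequence only.

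The 2 partners of the dimer were not called in either mutant. The shares called were 1.79% (G9a cKO) and 6.34% (cDKO) of all loci, and 5.22% and 15.8% of loci at 10 RPM or more. Wiz, whose zinc finger protein stabilises the G9A and GLP pair (chr17:32353376-32388885, minus strand), had 43.9, 38.2 and 40.4 RPM in the GKAO controls and 50.1, 41.0 and 46.1 RPM in G9a cKO. It had 44.6, 52.5 and 45.3 RPM in the GKAQ controls and 40.4 and 50.98 RPM in cDKO. The libraries overlapped in both comparisons, with log2 fold changes of 0.16 (SE 0.20, adjusted p = 0.579) and −0.06 (SE 0.22, adjusted p = 0.845). Zfp644 (chr5:106557737-106697207, minus strand) had 21.2, 6.81 and 12.9 RPM in the GKAO controls and 18.4, 27.9 and 21.7 RPM in G9a cKO. It had 11.3, 12.9 and 14.3 RPM in the GKAQ controls and 15.4 and 17.2 RPM in cDKO. One GKAO control lay within the G9a cKO range, and the change of 0.86 on the log2 scale (SE 0.31, adjusted p = 0.156) did not pass the test. Leaving out single libraries moved it from 0.43 (adjusted p = 0.347, without GKAO control replicate 2) to 1.25 (adjusted p = 0.0232, without GKAO control replicate 1), and it passed in 1 of 22 alternatives. In cDKO both libraries lay above the controls by 0.35 on the log2 scale (SE 0.34, adjusted p = 0.565). This locus reaches beyond the RefSeq gene and also overlaps Gm42145 on the same strand, so some of its reads may belong elsewhere. A second locus labelled Zfp644 had 2 reads over the 11 libraries and does not overlap the RefSeq gene.

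In the SETDB1 pathway 1 of 3 members was called, in cDKO, the only member besides Ehmt1. In cDKO 6.34% of all loci and 15.8% of loci at 10 RPM or more were called. Atf7ip, the SETDB1 cofactor (chr6:136518731-136610870, plus strand), fell in cDKO. It had 237.6, 271.7 and 264.2 RPM in the GKAQ controls and 166.3 and 211.6 RPM in cDKO. Both mutant libraries lay below all 3 controls, at 72.9% of the control level (log2 fold change −0.46, SE 0.12, adjusted p = 0.0036). In the GKAO libraries Atf7ip had 258.4, 203.7 and 198.7 RPM in controls and 220.4, 203.2 and 177.5 RPM in G9a cKO, which overlapped (a log2 change of −0.13, SE 0.11, adjusted p = 0.369). One of the cDKO libraries, replicate 2, lay above 2 of the 3 GKAO controls. The difference between the effects was −0.32 on the log2 scale with an adjusted p of 0.168. The locus of Atf7ip also overlaps LOC108169175 on the same strand, so some of its reads may belong to that gene. The call on Atf7ip held in 15 of 22 alternative settings. Without cDKO replicate 1 the change was −0.28 (adjusted p = 0.36), against both control groups pooled it was −0.34 (adjusted p = 0.0987), and for the pair of GKAQ55 it was −0.36.

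Setdb1 (chr3:95323504-95357451, minus strand) had 346.3, 370.0 and 377.1 RPM in the GKAQ controls and 317.1 and 288.7 RPM in cDKO. Both mutant libraries again lay below every control, at 83.1% of the control level, but the change missed the threshold (log2 fold change −0.27, SE 0.10, adjusted p = 0.0787). It passed in 3 of 22 alternatives, among them voom weights (adjusted p = 0.0279). In G9a cKO it had 362.0, 325.0 and 353.1 RPM against 365.4, 371.3 and 366.2 RPM in controls, lower in every library by a small margin (log2 fold change −0.09, SE 0.09, adjusted p = 0.493). Trim28 (chr7:13024152-13031035, plus strand), which links SETDB1 to KRAB zinc finger proteins, ranged from 155.9 to 211.9 RPM over all libraries. Its mutant and control libraries overlapped in both comparisons, with log2 fold changes of 0.18 (SE 0.11) in G9a cKO and −0.08 (SE 0.13) in cDKO.

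Setdb2, a related enzyme (chr14:59378729-59440936, minus strand), had 56.2, 45.6 and 46.9 RPM in the GKAO controls and 71.8, 62.3 and 78.2 RPM in G9a cKO. All 3 mutant libraries were above all 3 controls (log2 fold change 0.51, SE 0.17, adjusted p = 0.117), by 0.50 within GKAO109 and 0.57 within GKAO115. The change passed the test in 1 of 22 alternatives, where only loci of at least 10 RPM were tested (adjusted p = 0.0387). In cDKO Setdb2 had 62.6 and 68.2 RPM against 51.5, 59.6 and 72.0 RPM in controls, and these overlapped (log2 fold change 0.11, SE 0.20). This locus also spans Phf11c and Gm45935, so some of its reads may belong to them. Suv39h1 (chrX:8049579-8074313, minus strand) ranged from 88.0 to 138.3 RPM, with log2 fold changes of −0.19 (SE 0.14) in G9a cKO and 0.09 (SE 0.15) in cDKO. Suv39h2 (chr2:3450373-3475414, minus strand) ranged from 93.4 to 131.0 RPM, with changes of 0.03 (SE 0.14) and 0.10 (SE 0.15). Mutant and control libraries of both genes overlapped in both comparisons. The loci of Setdb1, Suv39h1 and Suv39h2 overlap loci on the other strand, and whether counting used the strand is not given. Reads of the 2 strands may thus be mixed where the loci overlap. Suv39h1 had 140 to 285 reads a library. The other-strand locus there, which reaches beyond Suv39h1, had 258 to 473, so at most a part of these can be in its count. The other-strand locus had 31 to 108 reads a library at Setdb1, and the pair at Suv39h2 had 9 to 31 and 82 to 169.

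The comparison that bears on replacement of the missing enzymes is whether any other member was higher in a mutant. Of the 8 members not labelled as deleted, 0 were called higher in G9a cKO, where 1.05% of all loci were, and 0 in cDKO, where 4.32% were. With voom weights these counts were also 0. All 8 lay among the 9091 loci at 10 RPM or more. Of those loci 258 were called higher in G9a cKO and 785 (8.63%) in cDKO. At an unadjusted p under 0.05, Zfp644 and Setdb2 were higher in G9a cKO and 0 members in cDKO. In either direction, 4044 of 38540 loci and 1926 of 9091 at 10 RPM or more had such a p in G9a cKO. In cDKO 6143 and 2901 had one. Over all 10 members 0 were called in G9a cKO, where 1.79% of all loci and 5.22% of loci at 10 RPM or more were called. In cDKO 2 were called, both lower, against 6.34% of all loci (2.02% lower) and 15.8% of loci at 10 RPM or more. The median log2 fold change of the 8 was 0.09 in G9a cKO and 0.01 in cDKO, and that of 9091 loci at 10 RPM or more was 0.01 and 0.05. Libraries did not overlap for Setdb1 (lower) and Setdb2 (higher) in G9a cKO, where 8.08% of all loci were lower and 5.95% higher without overlap. In cDKO this held for Ehmt1, Ehmt2, Setdb1 and Atf7ip (lower) and Zfp644 (higher), against 7.83% and 15.8% of all loci. All loci here include 8635 with no read in any library.

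The intervals, which are not adjusted for the number of loci, bound the rises these libraries could hold. In cDKO the upper limit of the 95% interval was below the control level for Setdb1 (−5.17%) and Atf7ip (−14.5%). It was 12.1% above control for Trim28, 29.4% for Wiz, 30.8% for Suv39h1, 32.2% for Suv39h2 and 40.9% for Setdb2. It was 102.8% for Zfp644, the member with the fewest reads after Ehmt2. In G9a cKO the upper limits were 6.05% for Setdb1, 5.27% for Atf7ip, 5.52% for Suv39h1, 22.6% for Suv39h2, 32.0% for Trim28 and 46.2% for Wiz, with 81.0% for Setdb2 and 174.9% for Zfp644. The measurement is of RNA only, and protein and enzyme activity were not analysed here.

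**Figure D2:**
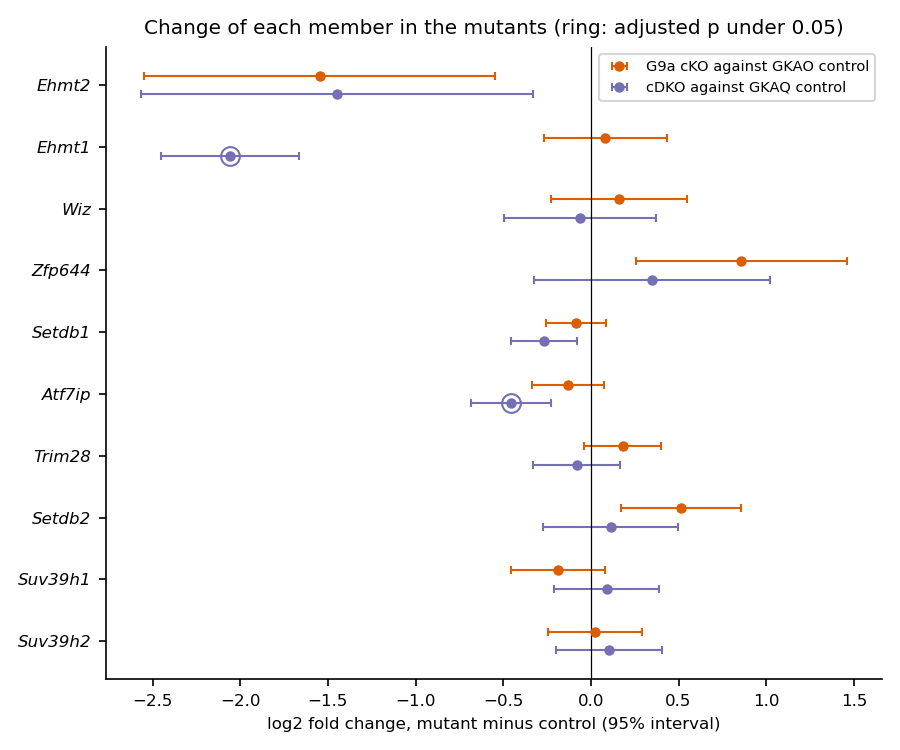
Log2 fold change of each gene (horizontal axis) in G9a cKO and in cDKO against the controls of the same prefix, as a point with its 95% interval, and a ring where the adjusted p was under 0.05. The 2 rings are Ehmt1 (−2.06) and Atf7ip (−0.46) in cDKO, and no gene has a ring to the right of 0.

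Other genes of the pathway were taken from 3 lists. Of 12 H3K9 demethylases, 0 were called in G9a cKO, where 1.79% of all loci and 5.22% of loci at 10 RPM or more were called. At an unadjusted p under 0.05 were 2 of the 12 in G9a cKO, against 4044 of 38540 loci and 1926 of 9091 at 10 RPM or more. In cDKO 2 demethylases rose, where 4.32% of all loci and 8.63% of loci at 10 RPM or more were called higher. Kdm3a, a demethylase of mono- and dimethylated H3K9, had 11.3 to 15.1 RPM in the GKAQ controls and 33.8 to 35.9 RPM in cDKO (log2 fold change 1.45, SE 0.34, adjusted p = 0.000865). Its relative Jmjd1c, matched by position, had 27.9 to 38.4 RPM in controls and 52.2 to 66.05 RPM in cDKO (log2 fold change 0.85, SE 0.25, adjusted p = 0.0151). The groups did not overlap for either gene. The call on Kdm3a held in 21 of 22 alternatives, and that on Jmjd1c in 16 of 22. The latter was lost without GKAQ control replicate 2 (0.74, adjusted p = 0.114) or cDKO replicate 1 (0.68, adjusted p = 0.298). The median log2 fold change of the list was 0.14 in G9a cKO against 0.28 in cDKO. Without the 1 gene at 3 reads or fewer in both groups it was 0.14 and 0.34.

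Among 11 readers of the mark and subunits of the HUSH silencing complex, 1 was called in G9a cKO and 2 in cDKO. The shares called were 1.79% and 6.34% of all loci, and 5.22% and 15.8% of loci at 10 RPM or more. Cbx3, which encodes the reader HP1 gamma, had 0 to 2 reads in the GKAO controls and 5 to 11 in G9a cKO (adjusted p = 0.0225). It had 6 to 14 reads in the GKAQ controls, so it was also called higher between the control groups (adjusted p = 0.002), and the call in G9a cKO held in 12 of 21 alternatives. It was lost without GKAO control replicate 1, G9a cKO replicate 1 or G9a cKO replicate 2 (adjusted p = 0.108, 0.0986 and 0.128). Morc2a, a HUSH partner, rose in cDKO from 51.3 to 62.2 RPM in controls to 77.7 and 104.8 RPM (log2 fold change 0.65, SE 0.20, adjusted p = 0.0205), and Cdyl, a chromodomain reader, fell from 99.9 to 112.9 RPM to 62.6 and 79.4 RPM (−0.58, SE 0.18, adjusted p = 0.02). Cdyl had 65.99 to 71.5 RPM in the GKAO controls, within the range of the cDKO libraries, and was itself called between the control groups (adjusted p = 0.00461). The call on Morc2a held in 14 of 22 alternatives and that on Cdyl in 16. With the title number as a block Morc2a was 0.37 (adjusted p = 0.396), and against both control groups pooled Cdyl was −0.28 (adjusted p = 0.596). The call on Morc2a was also lost without GKAQ control replicate 3 (0.56, adjusted p = 0.139) or cDKO replicate 1 (0.43, adjusted p = 0.523). That on Cdyl was also lost without GKAQ control replicate 2 (−0.53, adjusted p = 0.116), GKAQ control replicate 3 (−0.59, adjusted p = 0.0642) or cDKO replicate 1 (−0.41, adjusted p = 0.409). The median of the list was 0.12 in G9a cKO and −0.01 in cDKO, the same with Cbx3 at its bound of 3 reads.

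Of 13 matched further partners and related enzymes, 2 rose in G9a cKO and 1 rose and 1 fell in cDKO. The shares called were again 1.79% and 6.34% of all loci, and 5.22% and 15.8% of loci at 10 RPM or more. Chd4, the NuRD remodeller, had 802 to 876 RPM in the GKAO controls and 942 to 1024 RPM in the G9a mutant (log2 fold change 0.22, SE 0.06, adjusted p = 0.022). Zfp518a, a zinc finger gene, had 62.3 to 75.4 RPM in controls and 92.9 to 100.2 RPM in G9a cKO (0.50, SE 0.15, adjusted p = 0.0499). In cDKO Daxx, an H3.3 chaperone, rose (0.65, SE 0.19, adjusted p = 0.0116) and Prdm16, a PR domain gene, fell (−0.66, SE 0.20, adjusted p = 0.0261). The calls held in 11 (Chd4), 7 (Zfp518a), 15 (Daxx) and 16 (Prdm16) of 22 alternatives, and each was lost without at least 1 single library. Against both control groups pooled Zfp518a was 0.32 (adjusted p = 0.376). For Chd4 these were GKAO control replicates 1 and 3 and G9a cKO replicates 1 and 2 (adjusted p = 0.0584, 0.182, 0.206 and 0.0936). For Zfp518a they were 8 of 11 libraries (all but GKAO control replicate 1 and the cDKO pair), with adjusted p of 0.0549 to 0.214. For Daxx they were GKAQ control replicates 1 and 2 and cDKO replicate 1 (adjusted p = 0.117, 0.0529 and 0.219), and for Prdm16 GKAQ control replicates 2 and 3 and both cDKO libraries (adjusted p = 0.152, 0.0657, 0.103 and 0.134). The median of the list was 0.07 in G9a cKO against 0.10 in cDKO. It was 0.06 and 0.08 with genes of few reads at their bound or left out. The difference between the effects was called for 0 genes of the 3 lists, with 2 of 36 at an unadjusted p under 0.05. Of all 38540 loci 417 (1.08%) were called for it and 5132 had such an unadjusted p. Of 9091 loci at 10 RPM or more these were 304 and 1663.

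**Figure D3:**
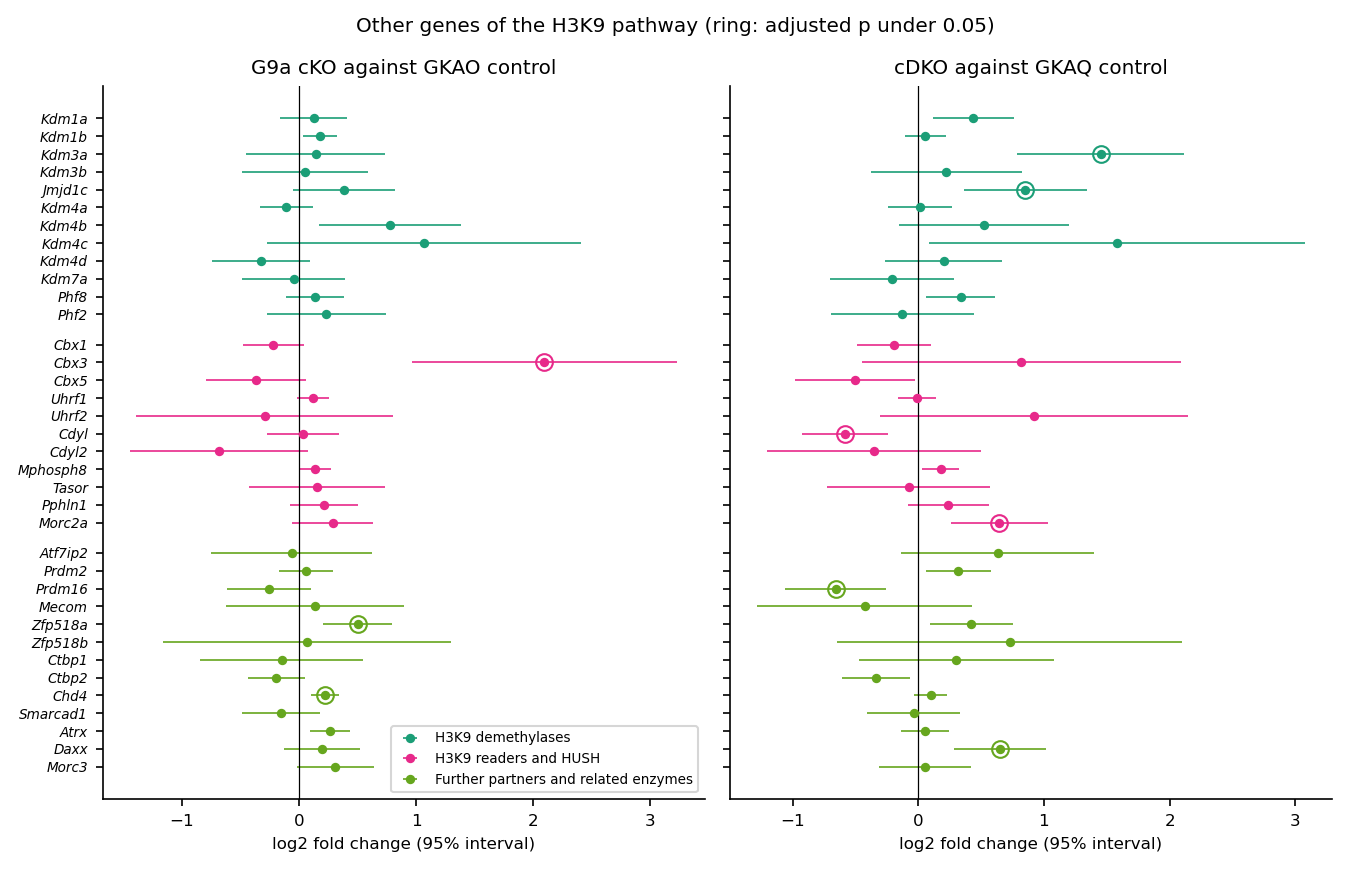
Log2 fold change with its 95% interval (horizontal axis) of the matched genes of the 3 lists in G9a cKO (left) and cDKO (right), with rings at an adjusted p under 0.05. The rings in cDKO are at 1.45 (Kdm3a), 0.85 (Jmjd1c), −0.58 (Cdyl), 0.65 (Morc2a), −0.66 (Prdm16) and 0.65 (Daxx).

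Markers of granulosa cells, which surround the oocyte, were examined beside these calls. Of the 10 granulosa markers 2 were called higher in cDKO, where 4.32% of all loci were called higher. They were Inha (12 to 17 reads against 2 to 10 in controls) and Fshr (9 to 16 reads against 1 to 6). The sum of the 10 was 114 to 138 RPM in cDKO and 132 to 157 RPM in the GKAQ controls. Nr5a2 (a mean of 95.1 RPM) and Cyp19a1 (36.7 RPM) made up most of that sum, so the sum does not follow the genes of few reads. Their values in cDKO were −0.19 (Nr5a2, limma adjusted p = 0.565) and −0.71 (Cyp19a1, adjusted p = 0.0546) on the log2 scale. The locus labelled Cyp19a1 covers 19.6% of the RefSeq span of that gene, so it may not represent the whole gene. Of the 10 oocyte markers 3 were called higher and 2 lower in cDKO, 2 higher and 1 lower in G9a cKO, and 2 higher and 3 lower between the control groups. In the same order, 15.8%, 5.22% and 14.8% of loci at 10 RPM or more were called. The shares of all loci were 6.34%, 1.79% and 3.87%. In G9a cKO 0 granulosa markers were called, and the sum was 133 to 163 RPM against 182 to 194 RPM. At an unadjusted p under 0.05 were 3: Fshr at 1.85, Cyp19a1 at −0.65 and Nr5a2 at −0.29 on the log2 scale. Of all 38540 loci 4044 had such a p. The part of these differences in the members' values was not tested.

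H3K9me2 over the members was examined as a separate readout. Libraries held 7048784 and 19128881 reads in controls and 1109191 to 1881848 in the mutants. Values are RPM per 10 kb window, which describe how the reads are distributed and not the total of the mark. The input and IgG libraries were not analysed, so reads from the mark and background reads cannot be told apart in these values. The 10 gene bodies took up 56 windows. Of these 0 were called in G9a cKO, where 1.85% of 255057 windows were called, and 0 in cDKO, where 0% were called, and in each mutant 7 of the 56 (12.5%) had an unadjusted p under 0.05, against 19.2% of all windows in G9a cKO and 8.999% in cDKO. With windows of no read also tested, 2 member windows, both of Atf7ip, were called in G9a cKO. In that setting 11.8% of 272158 windows were called, and 17101 of the 32053 called had no read in any library. Atf7ip had 3.55 and 3.17 RPM per window (controls), 5.24 and 5.49 (G9a cKO) and 5.01 and 5.65 (cDKO). Setdb1 had 3.76 and 3.33 RPM per window (controls), 6.06 and 6.09 (G9a cKO) and 5.803 and 4.92 (cDKO). Trim28 had 3.83 and 3.01 RPM per window (controls), 5.65 and 4.96 (G9a cKO) and 6.67 and 5.05 (cDKO). At these 3 genes of the SETDB1 pathway each mutant library was above both controls, and so it was at Ehmt2 and Suv39h2. Ehmt2 had 3.83 and 3.87 RPM per window (controls), 4.67 and 4.51 (G9a cKO) and 4.64 and 4.96 (cDKO). Suv39h2 had 2.84 and 2.81 RPM per window (controls), 3.05 and 5.11 (G9a cKO) and 3.87 and 3.72 (cDKO). Both mutants were compared with the same 2 control libraries. Ehmt1 had 3.30 and 3.06 RPM per window (controls), 3.19 and 3.61 (G9a cKO) and 4.29 and 4.33 (cDKO), above both controls in cDKO and overlapping them in G9a cKO. The median gene body had 3.83 and 3.77 RPM per window (controls), 3.63 and 3.76 (G9a cKO) and 4.06 and 4.12 (cDKO). In cDKO the median gene body was thus itself above both controls.

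Both cDKO libraries were above both controls at 7 of the 10 gene bodies, against 37.3% of 17183 gene bodies, and below both at 0, against 21.6%. Both G9a cKO libraries were above at 5 members and below at 3 (Zfp644, Setdb2 and Wiz), against 29.6% of gene bodies each way. The mutant values of a gene body rest on few reads, from 5 (Suv39h1, 2 windows) to 117 (Atf7ip, 11 windows) a library, while control values rest on 44 to 762.

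**Figure D4:**
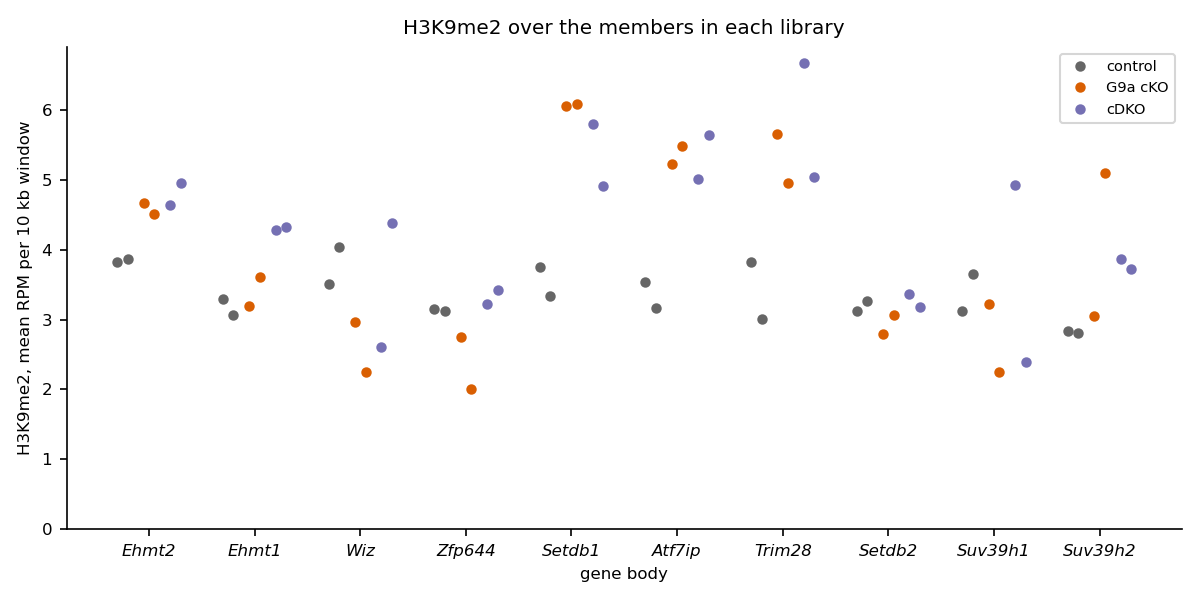
H3K9me2 over each gene body (horizontal axis) as mean RPM per 10 kb window (vertical axis from 0), with 1 point per library and 2 libraries per genotype. At Setdb1, Atf7ip and Trim28 the mutant points (4.92 to 6.67) lie above the control points (3.01 to 3.83), whereas at Wiz and Suv39h1 the cDKO points lie on both sides.

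As a description of pattern, the 5 named genes at 10 RPM or more whose log2 RPM followed Ehmt1 most closely over the 11 libraries were Akap12, Acacb, Dnmt1, Akap9 and Camsap2, with Pearson r of 0.946, 0.930, 0.929, 0.928 and 0.924 among 6939 genes. Each was lower in cDKO, by log2 fold changes of −0.91, −0.84, −0.58, −0.75 and −0.76, and between −0.06 and 0.05 in G9a cKO. Those most like Setdb1 were 9230110C19Rik, Tmco4, Hiatl1, Snapc3 and Rad51l3 (r of 0.933, 0.924, 0.919, 0.919 and 0.913 among 6940 genes), with changes in cDKO of −2.005, −1.605, −0.70, −0.85 and −0.70. The 11 libraries share the group structure and their depth, so these values describe likeness in these libraries only. The genes were picked by that likeness, so their lower values in cDKO come with the choice and are no separate result.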

How the data were processed

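RNA-seq and native H3K9me2 chromatin immunoprecipitation libraries were analysed. Per the submitters' processing notes, the tools named were Trim Galore, HISAT2 2.1.0, Bowtie2 and Bismark 0.19.0, with GRCm38 as the build. How reads were counted, and whether by strand, is not given in the sources used here. The authors deposited log2 values per transcript locus and per 10 kb window. The deposited log2 values are log2 RPM with 0.9 read given to an empty feature: whole reads were recovered for 100% of values (tolerance 0.02 read), so the value of an empty locus depends on depth. Of the H3K9me2 columns, 4 match no sample and were not used.

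Linear models from limma 3.58.1 (R 4.3.3; data.table package, version 1.17.8) were fitted to the deposited log2 values of all 38540 loci, with no pseudocount, a mean for each of the 4 groups over 11 libraries, and empirical Bayes moderation with trend, robust to outlying variances. Contrasts were each mutant against the controls of its title prefix, the difference between these effects, and the 2 control groups. H3K9me2 was fitted likewise over the 255057 windows with a read in at least 1 of 6 libraries. Tables and figures used Python 3.11.15, pandas 2.3.3, numpy 2.4.6 and matplotlib 3.10.9. Every member locus is reported, together with list genes called in either mutant (at most 8 a list) and the 5 genes most like Ehmt1 and Setdb1. Of the 36 list genes matched, 6 were matched by position. The members and lists were chosen with earlier results of these data known. Alternatives covered filters, centring, quantile normalization, pseudocounts, voom weights, pooled controls, the number in the sample title as a block, and each library left out. Bisulphite, input and IgG libraries were not analysed here.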

Additional observations from a re-analysis of the deposited data

Results flagged for a closer look

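The change of Ehmt1 differed between the mutants by −2.14 on the log2 scale (cDKO minus G9a cKO, limma adjusted p = 1.98e-11), and a test of the difference itself brought it up for a closer look. Ehmt1 is labelled as deleted in cDKO and not in G9a cKO, and both cDKO libraries were below all 3 of their controls while the G9a cKO libraries overlapped theirs. No group had 4 or more libraries, so single libraries were not tested for distance from their group.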

How the results depend on the processing

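The fall of Ehmt1 in cDKO was called in 22 of 22 alternatives (−2.24 to −1.68), and its difference between the effects in 21 of 21. The call on Atf7ip in cDKO was lost with log2(RPM + 1) (−0.45, adjusted p = 0.193), log2(RPM + 0.5) (−0.46, 0.222), voom weights (−0.47, 0.0715), pooled controls (−0.34, 0.0987), the title number as a block (−0.36, 0.323), no trend and no robust step (−0.46, 0.312) and without cDKO replicate 1; over single libraries left out it ran from −0.63 to −0.28. Ehmt2 was called in G9a cKO with pooled controls (−1.67) and without G9a cKO replicate 2 (range over libraries left out −2.25 to −0.91), and in cDKO with quantile normalization (−1.88); it fell under the filter at 10 RPM, which gave no value.

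Signs of small changes turned. With pooled controls they were −0.0565 (Ehmt1) and −0.00797 (Suv39h2) in G9a cKO, and 0.0469 (Wiz) and −0.0506 (Suv39h1) in cDKO. Suv39h1 in cDKO was −0.00524 when centred on detected loci and −0.0917 with the block, and Trim28 was 0.0411 with the block. The difference between the effects on Ehmt2 was −0.19 (quantile), −0.0584 (RPM + 1), −0.0033 (RPM + 0.5) and −0.58 (block). Over libraries left out the ranges were −0.0647 to 0.21 for Ehmt1 and −0.0582 to 0.13 for Suv39h2 in G9a cKO, −0.23 to 0.11 for Wiz, −0.00312 to 0.24 for Setdb2, −0.0301 to 0.19 for Suv39h1 and −0.0241 to 0.23 for Suv39h2 in cDKO, and −0.53 to 0.80 for the Ehmt2 difference.

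Shares of the 38540 loci called moved more than counts of members, and the cause was not tested. In G9a cKO (1.79%) they were 0.0882% with log2(RPM + 1), 0.153% with RPM + 0.5, 1.13% with voom, 3.11% with pooled controls, 0.464% with no trend and no robust step, and 0.983 to 1.93% over libraries left out. In cDKO (6.34%) they were 3% and 2.48% with these pseudocounts, 2.52% with the block, 2.99% with no trend, and 4.05 to 6.42%. For the difference (1.08%) they were 0.265%, 0.402%, 0.501% with voom, 3.64% pooled, 0.213% with no trend, and 0.719 to 38.2%. The 38.2% arose without GKAQ control replicate 1, where 8852 of 14705 loci called had no read in any library; as reported, 0 of 8635 such loci were called. Between controls (3.87%) they were 1.09%, 1.03% and 0.283% with no trend. Of the loci called in cDKO, and not of all loci, 68.1% were higher as deposited, 53.1% when centred and 49.8% after quantile normalization. Of those called for the difference, 63.3%, 45.6% and 53.9% were higher. Members called numbered 1 in G9a cKO at 10 RPM or more (Setdb2) and with pooled controls (Ehmt2), and 0 to 1 over libraries left out. In cDKO they numbered 1 with RPM + 1, RPM + 0.5, pooled controls, the block and no trend, 3 at 10 RPM or more and when centred (with Setdb1) and after quantile normalization (with Ehmt2), and 1 to 2 over libraries left out. With all H3K9me2 windows kept, 2 member windows (Atf7ip) were called in G9a cKO, with 11.8% of all windows. The meaning of the title number is not given, so it pairs nothing here. Where leaving out a library left 1 in cDKO, that library was assumed to vary like the other groups. Restricting members to labelled loci, a choice made after seeing the data, left 0 and 2 called.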
